A study of Mus musculus with 9 samples.

Results

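Guanylate-binding proteins (GBPs) and immunity-related GTPases (IRGs) are GTP-hydrolysing proteins that cells make in response to interferons, above all interferon gamma. The genes described here were taken by name from the deposited count table: Gbp2, Gbp3, Gbp4, Gbp5 and Gbp7, the IRG genes Igtp, Irgm1, Irgm2 and Iigp1, and Irf1, which encodes the transcription factor interferon regulatory factor 1 and is no GTPase. All 10 were found among 21720 genes, and all 10 were among the 16160 that passed the filter on low counts. GBPs assemble on intracellular bacteria and on the vacuoles that hold them, and in macrophages they help to open such vacuoles to the inflammasome, the complex that activates caspase-1. IRG proteins act on the same vacuoles, with Iigp1 as an effector that coats them and Irgm1, Irgm2 and Igtp as regulators that hold the effectors inactive on the cell's own membranes. Irf1 is itself induced by interferon gamma and binds to interferon response elements of many of the other genes.

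The libraries were made from colon RNA of wild-type female C57BL/6 J mice and fall into 3 groups, each with 3 libraries. The Normal group was gavaged with the vehicle, 0.5% CMC-Na (sodium carboxymethyl cellulose), over 7 days. Mice of the Model group had 5% DSS by gavage over the same number of days. DSS (dextran sulfate sodium) injures the colonic epithelium and is used to model ulcerative colitis. For the Atorvastatin group the labels give 10 mg/kg atorvastatin, a statin, daily in 0.2 mL on 5 days from day 3 to day 7, and they do not say whether DSS was given as well. The ages of the mice are not in the labels. Nothing in the labels says outright that a library stands for its own mouse. The p-values therefore refer to the spread among the libraries, part of which may be technical. Totals ran from 72584333 to 91737502 estimated counts a library, and no pair within a group agreed within counting noise. All 12 colon epithelial markers looked for, such as Muc2, Car1 and Slc26a3, were detected. Pancreatic enzyme genes (16 genes) summed to 96651 CPM (counts scaled to a common library size) in Model 2 and 41256 CPM in Model 3, against 46.8 to 3081 CPM in the other 7 libraries. Genes of small intestinal enterocytes (10 genes) were highest in Model 3, at 666 CPM against at most 341 CPM elsewhere. An alternative fit left these genes out, and Gbp5 was called higher in Model in it, as in all 21 alternative fits. Leaving out the listed genes does not test the part of such tissue in the results. Of the 5 members called in Model below, all were still called without Model 3, 1 (Gbp5) without Model 2 and 1 (Gbp5) without both.

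The members lie in clusters. On chromosome 3, in the coordinates of the authors' table, Gbp5 (142202661 to 142228105), Gbp7 (142236103 to 142255910), Gbp3 (142265787 to 142278970) and Gbp2 (142326363 to 142343769) follow each other, with the related gene Gbp2b between Gbp3 and Gbp2 as the 1 other gene of the table there. Gbp4 (105263633 to 105287452) lies on chromosome 5, where 23774 of its 23820 annotated bases are also annotated to Gbp8 and 23773 to Gbp9. On chromosome 11 lie Irgm1 (48756072 to 48762247), Irf1 (53660841 to 53669200), Igtp (58090382 to 58098417) and Irgm2 (58090444 to 58113608), and 7974 of the 8036 bases of Igtp fall within Irgm2. Reads of Gbp4, Igtp and Irgm2 can therefore be divided between overlapping genes, and reads of all GBPs between paralogs of similar sequence, so that the counts of these genes are uncertain. The table names no genome build. The submitters' processing notes name mm39 as a mouse build, and the coordinates differ from those of GRCm38.

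The start sites of 8 members had an entry in RefSeq's promoter windows (GRCm38.p6, 250 bases before to 50 bases after the start). Those windows were searched on both strands for TTCNNNGAA, the GAS element (interferon gamma activated site), and for GAAA followed after any 2 bases by GAAA, the core shared by interferon-stimulated response elements and IRF sites. The response element core was present for 7 of the 8 genes (Gbp2, Gbp3, Gbp5, Gbp7, Igtp, Irgm1 and Irgm2), against 3.99% of 27025 genes with a window. A GAS match was present for 5 of the 8 (Gbp5, Gbp7, Irf1, Igtp and Irgm2), against 9.55% of all genes. Of the printed windows, those of Gbp5 and Gbp2 belong to called GBPs and those of Igtp and Irgm2 show how alike neighbouring IRG promoters are. Matches are in capitals, and all 4 windows are on the plus strand: chr3:142496684-142496983 for Gbp5, chr3:142620413-142620712 for Gbp2, chr11:58199306-58199605 for Igtp and chr11:58214727-58215026 for Irgm2.
Gbp5: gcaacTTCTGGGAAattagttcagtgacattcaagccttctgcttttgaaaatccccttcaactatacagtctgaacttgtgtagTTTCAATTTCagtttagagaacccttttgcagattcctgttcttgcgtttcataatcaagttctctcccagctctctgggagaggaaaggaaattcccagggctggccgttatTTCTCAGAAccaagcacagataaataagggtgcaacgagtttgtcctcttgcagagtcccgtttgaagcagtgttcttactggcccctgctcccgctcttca
Gbp2: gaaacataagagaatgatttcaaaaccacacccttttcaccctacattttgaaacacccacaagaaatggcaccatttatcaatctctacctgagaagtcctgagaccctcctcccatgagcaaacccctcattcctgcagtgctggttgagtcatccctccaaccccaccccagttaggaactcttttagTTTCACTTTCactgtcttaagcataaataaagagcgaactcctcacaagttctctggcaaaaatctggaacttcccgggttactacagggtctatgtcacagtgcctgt
Igtp: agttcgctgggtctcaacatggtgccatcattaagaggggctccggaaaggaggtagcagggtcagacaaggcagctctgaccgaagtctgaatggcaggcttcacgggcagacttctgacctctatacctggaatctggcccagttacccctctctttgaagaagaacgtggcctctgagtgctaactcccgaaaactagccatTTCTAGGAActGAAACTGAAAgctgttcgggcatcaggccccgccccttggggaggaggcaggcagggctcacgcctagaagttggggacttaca
Irgm2: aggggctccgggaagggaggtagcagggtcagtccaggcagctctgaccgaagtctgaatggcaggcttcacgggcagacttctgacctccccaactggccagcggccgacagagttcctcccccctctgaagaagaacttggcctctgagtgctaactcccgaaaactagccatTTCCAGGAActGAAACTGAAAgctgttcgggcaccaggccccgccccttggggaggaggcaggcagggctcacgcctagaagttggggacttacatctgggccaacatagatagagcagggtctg
Gbp5 carried a GAS match at -245 to -237 and at -52 to -44 from the start, with a response element core on the other strand at -165 to -156. Gbp2 carried 1 match, a core on the other strand at -59 to -50, and no GAS match in its window. In Igtp and in Irgm2 the GAS match and the core stood in the same order with 2 bases between them. Aligned there without gaps, the windows of Igtp and Irgm2 were identical at 184 of 270 bases (68.1%). Further upstream, a stretch that both windows hold, beginning gaagtctgaatgg, lies out of register in that alignment. The share therefore understates how alike the 2 windows are. A match of letters does not show binding, and the windows cover only the bases nearest to the start.

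The first question is which members differ between colon after DSS and colon after the vehicle. Levels below are CPM after TMM scaling, and adjusted p-values are from edgeR's quasi-likelihood test with Benjamini-Hochberg adjustment over 16160 genes. Of the 10 members, 5 rose in Model (Gbp5, Gbp2, Gbp4, Irf1 and Iigp1), 0 fell and 5 did not pass, while 4.37% of all tested genes were called higher and 1.10% lower. The log2 fold change was positive for all 10 members, from 0.41 to 2.31, with a median of 1.15 against -0.0009 over all genes tested. In 7 of 10 every Model library lay above every Normal library, which 14.0% of all tested genes also did. At an unadjusted p under 0.05, 8 of 10 members were higher, against 13.1% of all genes. The members were chosen with earlier results of these data known, so these counts describe them and do not test them as a list.

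**Figure D1:**
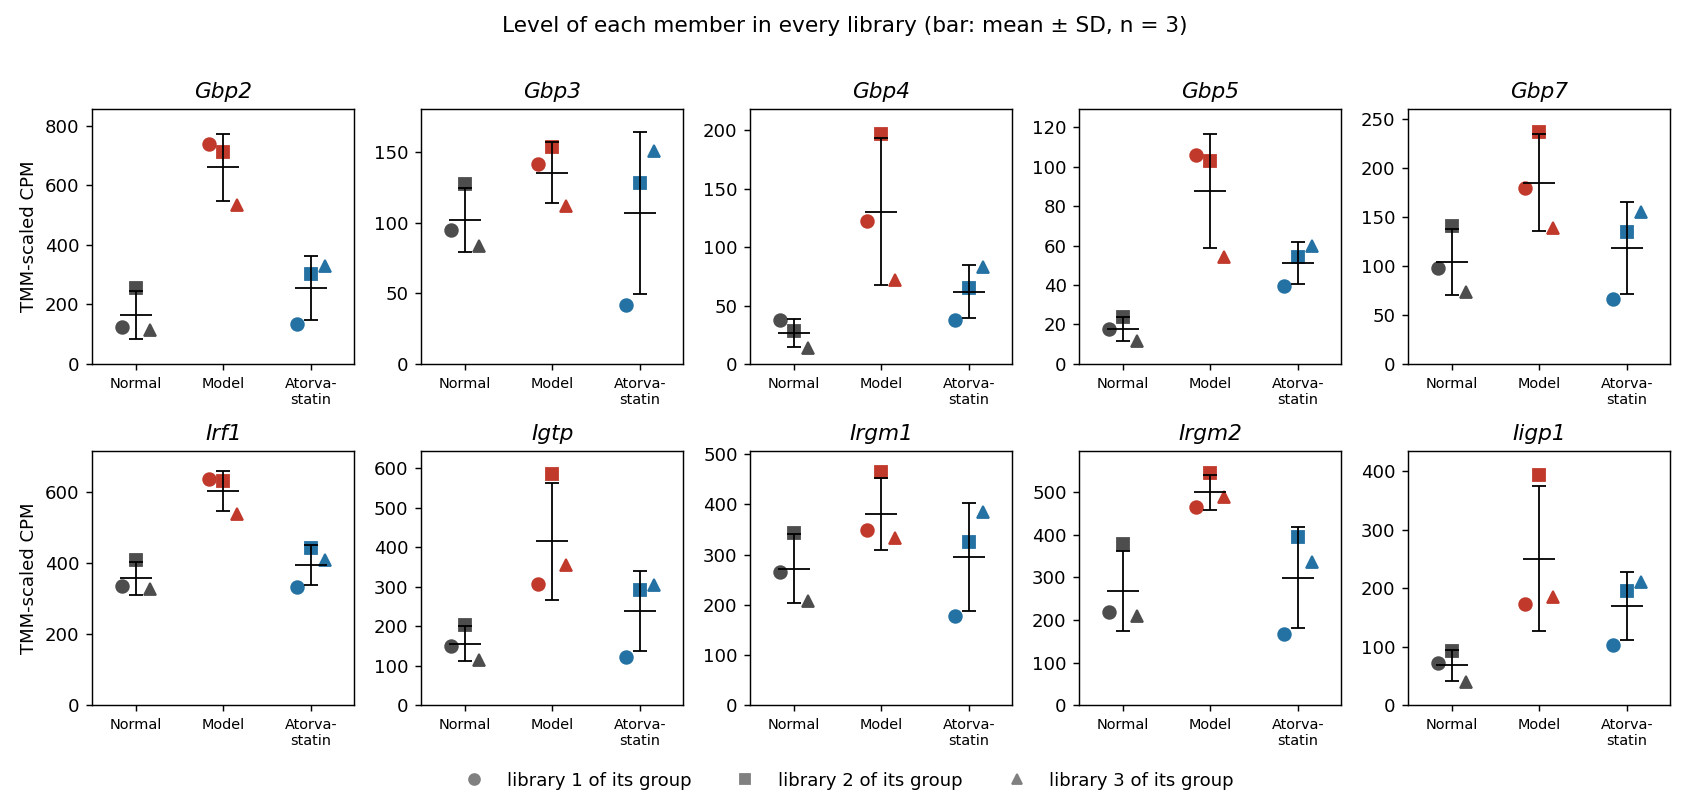
TMM-scaled CPM of each member in every library, by group, with the mean ± SD of 3 libraries as bars and the library number as the symbol. Gbp2, Gbp4, Gbp5, Irf1, Igtp, Irgm2 and Iigp1 do not overlap between Normal and Model, and Atorvastatin 1 is the lowest of its group in all 10 panels.

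Among the GBPs, Gbp5, which promotes inflammasome assembly in mouse macrophages, stood at 17.7, 23.9 and 11.7 CPM in Normal 1 to 3, at 106, 103 and 54.4 CPM in Model 1 to 3 and at 39.6, 54.3 and 59.8 CPM in Atorvastatin 1 to 3. Normal was lowest, without overlap with either other group, and Model 3 fell within the range of the Atorvastatin libraries. Gbp5 rose 4.94-fold in Model (log2 fold change 2.30 ± 0.33 (SE), adjusted p = 0.00836). It was called in 9 of 9 fits that each left out 1 library (adjusted p = 0.00379 to 0.0385) and in all 21 alternative fits. Without Model 2 and 3 together, its log2 fold change was 2.57 (adjusted p = 0.0171).

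Gbp2, which in mice attacks the vacuole of the parasite Toxoplasma, was the most abundant GBP. It stood at 123, 256 and 115 CPM in Normal 1 to 3, at 739, 712 and 533 CPM in Model 1 to 3 and at 133, 303 and 331 CPM in Atorvastatin 1 to 3. Every Model library was above all 6 others, whereas Normal and Atorvastatin overlapped. Gbp2 rose 4.01-fold (log2 fold change 2.005 ± 0.41, adjusted p = 0.0273). The call was lost without Normal 1 (adjusted p = 0.0904), Normal 3 (0.120), Model 1 (0.0773) or Model 2 (0.0594), with a log2 fold change of 1.79 to 2.47 over the fits that left out 1 library.

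Gbp4, a GBP of the chromosome 5 cluster, stood at 37.5, 27.99 and 13.7 CPM in Normal, at 122, 197 and 72.3 CPM in Model and at 38.02, 64.8 and 82.9 CPM in Atorvastatin, each in the order of libraries 1 to 3. Model 2 was the highest library, and no library of Model or Atorvastatin reached down into the Normal range. Gbp4 rose 4.94-fold in Model (log2 fold change 2.31 ± 0.47, adjusted p = 0.0274). The call was lost without Normal 1 (adjusted p = 0.0502), Normal 2 (0.0767), Normal 3 (0.0943), Model 1 (0.0672) or Model 2 (0.0630).

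The other 2 GBPs moved less and did not pass. Gbp7 had 104 ± 34.1 CPM in Normal and 185 ± 49.5 CPM in Model (mean ± SD, n = 3 each; log2 fold change 0.83 ± 0.35, adjusted p = 0.210). Gbp3 had 102 ± 22.7 CPM in Normal and 135 ± 21.6 CPM in Model (log2 fold change 0.41 ± 0.39, adjusted p = 0.600). For both genes Normal 2 lay above the lowest Model library, Model 3. Along the cluster on chromosome 3, in the order Gbp5, Gbp7, Gbp3, Gbp2b and Gbp2, the log2 fold changes were 2.30, 0.83, 0.41, 1.36 and 2.005, so that the genes at both ends had the larger values. Differences between neighbouring genes were not tested.

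Irf1, the transcription factor, stood at 334, 409 and 326 CPM in Normal 1 to 3, at 637, 631 and 538 CPM in Model 1 to 3 and at 331, 442 and 407 CPM in Atorvastatin 1 to 3. Every Model library lay above the other 6, while Normal and Atorvastatin overlapped. Irf1 rose 1.69-fold in Model (log2 fold change 0.76 ± 0.17, adjusted p = 0.0353), the smallest fold among the 5 members called. Leaving out Normal 1 (adjusted p = 0.114), Normal 2 (0.0510), Normal 3 (0.159), Model 1 (0.0986), Model 2 (0.0760), Atorvastatin 2 (0.0523) or Atorvastatin 3 (0.0617) ended the call.

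Of the 4 IRG genes, the effector Iigp1 rose and the 3 regulators did not pass. Differences between Iigp1 and the regulators were not tested. Iigp1 lies away from the other members, on chromosome 18 from 60509101 to 60525706 in the authors' table. Iigp1 stood at 72.0, 93.1 and 40.6 CPM in Normal 1 to 3, at 174, 393 and 185 CPM in Model 1 to 3 and at 104, 196 and 211 CPM in Atorvastatin 1 to 3. All Normal libraries were below all others, and Model 2 was the highest of all 9. The change in Model was 3.66-fold (log2 fold change 1.87 ± 0.42, adjusted p = 0.0389). This call was lost without Normal 1 (adjusted p = 0.103), Normal 2 (0.0572), Normal 3 (0.141), Model 1 (0.0587), Model 2 (0.0844), Atorvastatin 2 (0.0560) or Atorvastatin 3 (0.0555).

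Igtp, a regulator also called Irgm3, stood at 151, 204 and 114 CPM in Normal, at 307, 584 and 355 CPM in Model and at 123, 291 and 305 CPM in Atorvastatin, in the order of libraries 1 to 3. Model lay above the other groups without overlap, led by Model 2, yet the test was not passed (log2 fold change 1.41 ± 0.38, adjusted p = 0.0694). Without Atorvastatin 1 it was (adjusted p = 0.0378). Irgm2 had 269 ± 93.8 CPM in Normal and 499 ± 41.0 CPM in Model (log2 fold change 0.89 ± 0.33, adjusted p = 0.157), again without overlap. Irgm1, whose loss in mice disturbs autophagy and leaves them open to mycobacteria, had 272 ± 68.2 CPM in Normal and 381 ± 71.8 CPM in Model, with overlap (log2 fold change 0.49 ± 0.30, adjusted p = 0.391). With DESeq2, Igtp (adjusted p = 0.00234) and Irgm2 (adjusted p = 0.0498) were called higher as well, besides the 5 above.

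**Figure D2:**
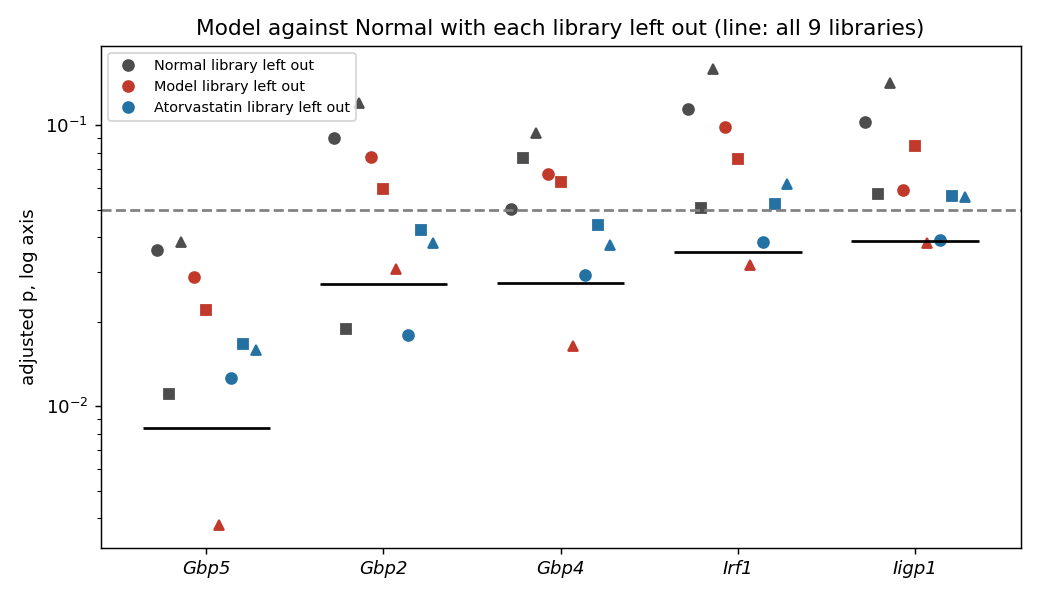
Adjusted p (log axis) of the 5 members called in Model against Normal when each of the 9 libraries was left out, coloured by the group of that library, with circles, squares and triangles for libraries 1, 2 and 3. The dashed line is 0.05 and the solid line the value with all 9 libraries. Only Gbp5 stays under 0.05 throughout.

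Levels can be compared between genes once divided by exon length, here as CPM per kilobase of annotated exon (GENCODE M21 gene models). In Normal the order of the means rose from Gbp5 (5.81 ± 2.003) and Gbp4 (5.82 ± 2.63) over Gbp7 (18.6 ± 6.07), Iigp1 (21.9 ± 8.45) and Gbp3 (33.3 ± 7.42) to Gbp2 (65.5 ± 31.6), Irgm2 (72.9 ± 25.4), Igtp (77.4 ± 22.3), Irf1 (107 ± 13.8) and Irgm1 (118 ± 29.6). Neighbours in that order overlapped in their 3 libraries, except at the steps from Gbp4 to Gbp7 and from Gbp3 to Gbp2. In Model, Gbp2 had the highest mean level at 263 ± 44.6 CPM per kb, followed by Igtp at 206 ± 73.3, Irf1 at 180.4 ± 16.6 and Irgm1 at 165 ± 31.1. Gbp5 and Gbp4, both at 28.7 CPM per kb, remained lowest there, with Gbp7 at 33.0 ± 8.82. The 2 members with the lowest mean level in Normal had the 2 largest folds in Model, and Irgm1, with the highest, had the second smallest. As the Normal level is the divisor of the fold, the 2 measures are tied by construction. Gbp2 and Gbp3 departed from that order, with 4.01-fold at 65.5 CPM per kb and 1.33-fold, the smallest, at 33.3 CPM per kb. A relation between level and fold was not tested.

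**Figure D3:**
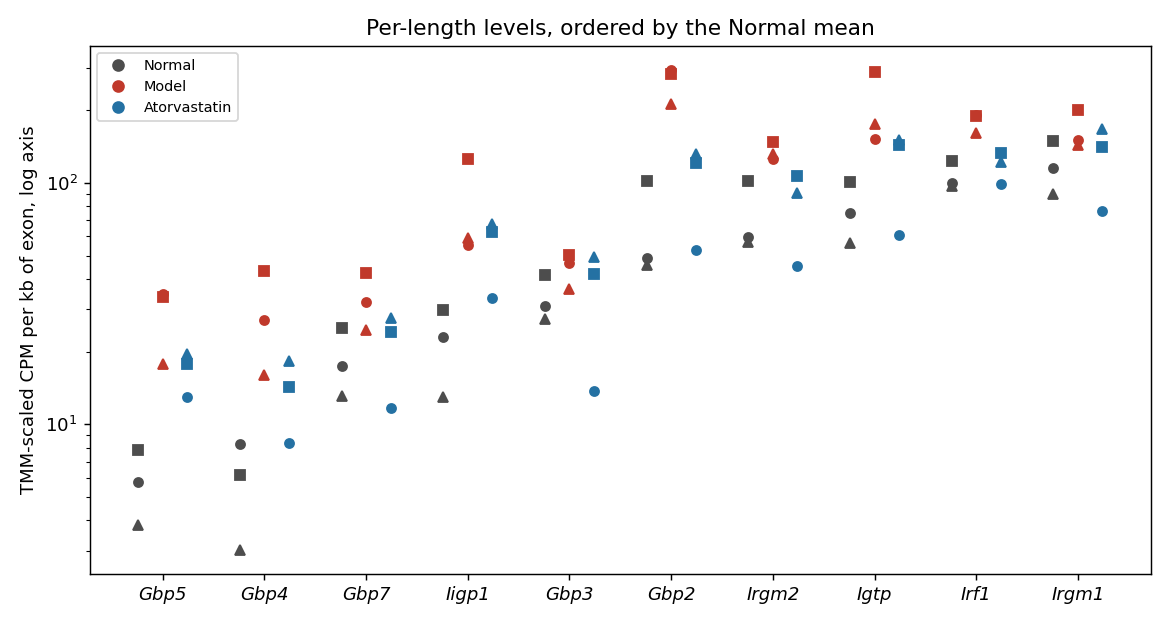
TMM-scaled CPM per kb of exon on a log axis for each member in all 9 libraries, with genes ordered by their Normal mean and symbols by library number (circle 1, square 2, triangle 3). The Normal means run from 5.81 for Gbp5 to 118 for Irgm1.

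Next, Atorvastatin was compared with Model. As the labels do not say whether the Atorvastatin group had DSS, a difference between drug and no drug and one between no DSS and DSS cannot be told apart here. None of the 10 members passed edgeR's test, nor did any of the 16160 genes (0% called), with 11.8% of all genes at an unadjusted p under 0.05. All 10 members had a negative log2 fold change, from -1.37 to -0.34 with a median of -0.69, against -0.03 over all genes. At an unadjusted p under 0.05, 5 of 10 members were lower, against 5.85% of all genes. In 4 (Gbp2, Irf1, Igtp and Irgm2) every Atorvastatin library lay below every Model library, as for 7.70% of all genes. With DESeq2, which called 321 genes in this comparison, Gbp2 (adjusted p = 0.0265) and Irf1 (adjusted p = 0.0270) were called lower. In edgeR, Gbp2 averaged 256 ± 107 CPM in Atorvastatin and 661 ± 112 CPM in Model (log2 fold change -1.37 ± 0.40, adjusted p = 0.327). Irf1 averaged 394 ± 56.7 CPM against 602 ± 55.4 CPM (log2 fold change -0.61 ± 0.17, adjusted p = 0.323). The next largest differences were those of Gbp4 (-1.08 ± 0.45, adjusted p = 0.399), Igtp (-0.79 ± 0.38, adjusted p = 0.453) and Gbp5 (-0.78 ± 0.31, adjusted p = 0.385). Irgm2 was at -0.74 ± 0.33 (adjusted p = 0.422) and Gbp7 at -0.64 ± 0.35 (adjusted p = 0.503). The smallest were those of Iigp1 (-0.56 ± 0.41, adjusted p = 0.643), Irgm1 (-0.37 ± 0.30, adjusted p = 0.678) and Gbp3 (-0.34 ± 0.39, adjusted p = 0.794).

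Atorvastatin was also compared with Normal, with which the Model comparison shares its control libraries. Again 0 of 10 members passed in edgeR's test, against 1.67% of all genes, and 3 had an unadjusted p under 0.05, all higher (8.84% of all genes). DESeq2 called 2 of them, Gbp5 and Iigp1. Gbp5 came nearest in edgeR, at 51.2 ± 10.5 CPM against 17.8 ± 6.12 CPM (log2 fold change 1.53 ± 0.32, adjusted p = 0.0519), and was called in 9 of 21 alternative fits. Iigp1 was at 1.31 ± 0.42 (adjusted p = 0.169) and Gbp4 at 1.23 ± 0.45 (adjusted p = 0.237). For these 3 genes no Atorvastatin library overlapped Normal, as for 13.5% of all genes. Gbp2 was at 0.63 ± 0.39 (adjusted p = 0.503) and Igtp at 0.62 ± 0.38 (adjusted p = 0.494). All 10 members had a smaller log2 fold change here than in Model against Normal. Gbp7, Irf1, Irgm1, Irgm2 and Gbp3 lay between 0.07 and 0.19 on the log2 scale, with overlap. Group means ran in the order Normal, Atorvastatin, Model from low to high for 10 of 10 members and for 23.3% of all genes.

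**Figure D4:**
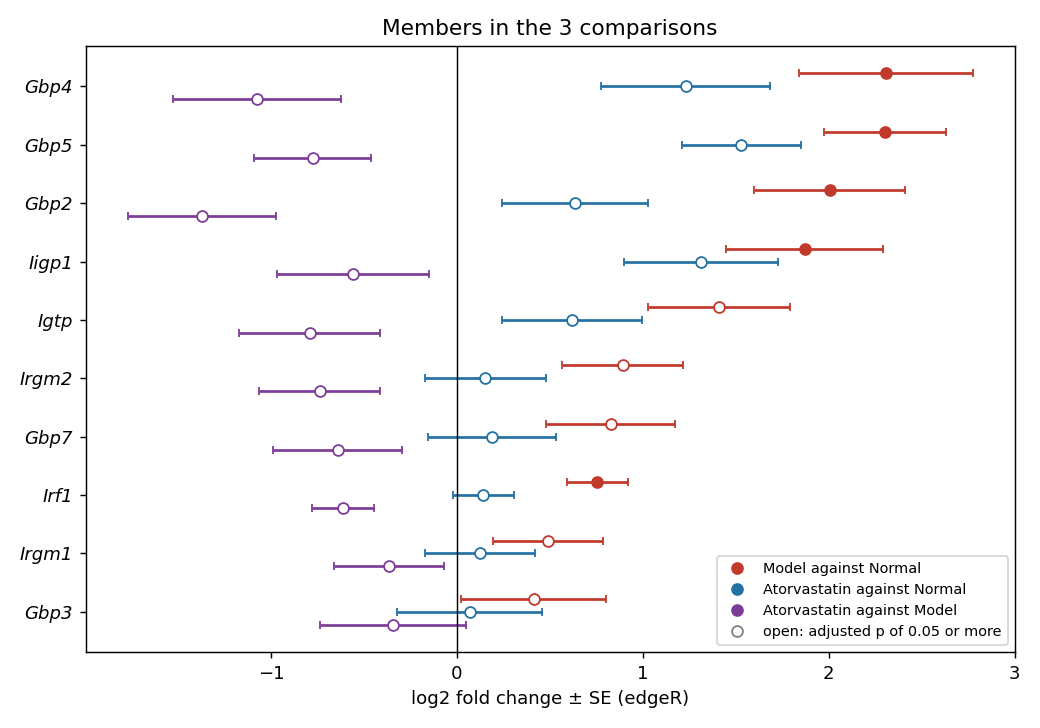
Log2 fold change ± SE of each member in the 3 comparisons, filled where the adjusted p was under 0.05. Filled points occur for Gbp4, Gbp5, Gbp2, Iigp1 and Irf1 in Model against Normal, and every value of Atorvastatin against Model is below 0.

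The members varied together from library to library within groups. Atorvastatin 1 was the lowest of its group for 10 of 10 members, and Normal 3 was the lowest of its group for 10 of 10, against 37.1% and 32.5% of all tested genes. Model 2 was the highest Model library for 7 members (33.9% of all genes) and Model 3 the lowest for 7 (37.7%). These libraries were singled out after their values were seen. Summed over the 10 members, the level was 1221 CPM in Atorvastatin 1 against 2334 and 2424 CPM in Atorvastatin 2 and 3, and within the Normal range of 1195 to 2003 CPM. Model libraries had 2807 to 4019 CPM. Summed over 13 other genes induced by interferon gamma, Atorvastatin 1 had 2177 CPM against 4283 and 4408 CPM in Atorvastatin 2 and 3. Over 18 genes induced mainly by type I interferon, the same library had 1336 CPM against 3777 and 4814 CPM. Normal 3 was the lowest of its group in both sums, at 1365 and 2937 CPM. Low values in these libraries were therefore not particular to the members. Between pairs of members, Pearson's r of log2 CPM over the 9 libraries ran from 0.46 to 0.98, with a median of 0.85 over 45 pairs. These values contain the group differences and share the libraries and their scaling, so they describe the members and carry no test.

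Outside the members, the genes whose log2 CPM followed the members' mean z-score most closely over the 9 libraries were Samhd1 (Pearson's r = 0.99), Tspan18 (0.98), Psmb8 (0.98), Tap1 (0.97) and Upp1 (0.97). SAMHD1 is a nucleotide triphosphate hydrolase that restricts retroviruses, Psmb8 encodes an immunoproteasome subunit and Tap1 a subunit of the peptide transporter for MHC class I. Of these 5, Upp1, the uridine phosphorylase gene, rose in Model (log2 fold change 1.68 ± 0.42, adjusted p = 0.0499). Samhd1 was at 1.14 ± 0.31 (adjusted p = 0.0673) and Psmb8 at 1.19 ± 0.30 (adjusted p = 0.0566). Tap1 was at 1.25 ± 0.36 (adjusted p = 0.0799) and Tspan18 at 0.72 ± 0.26 (adjusted p = 0.156).

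Other genes of the GBP and IRG families were also higher in Model. Of 11 tested, 5 rose, 0 fell and 6 did not pass, while 4.37% of all genes were called higher. The median log2 fold change was 1.52. The IRG genes Ifi47 (log2 fold change 2.05 ± 0.35, adjusted p = 0.0149), Tgtp1 (2.56 ± 0.62, adjusted p = 0.0459) and Tgtp2 (2.04 ± 0.47, adjusted p = 0.0410) rose, as did Gbp8 (2.05 ± 0.41, adjusted p = 0.0269) and Gbp2b (1.36 ± 0.30, adjusted p = 0.0354). Tgtp1 and Tgtp2 are near-identical copies, and Gbp8 overlaps Gbp4, so their counts are uncertain. Irgc1, a family gene singled out after its values were seen, stood near the floor at 0.37 to 0.41 CPM in Normal and at 0 in Model 1 and 3 (log2 fold change -3.88 ± 1.46, adjusted p = 0.168). Gbp2b had the lowest level per exon length of the 5 genes in the cluster on chromosome 3 and stood at 2.496 ± 0.10 CPM in Normal and 6.41 ± 2.004 CPM in Model. Its libraries in Atorvastatin, at 1.28, 2.20 and 1.64 CPM, were all below Normal (log2 fold change -0.55 ± 0.30, adjusted p = 0.430). None of these 11 genes passed in either comparison with Atorvastatin in edgeR's test. At an unadjusted p under 0.05, 1 was lower than Model (Gbp2b, log2 fold change -1.91 ± 0.30, adjusted p = 0.322), against 5.85% of all genes. At the same threshold 6 differed from Normal, against 15.2% of all genes.

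Signalling and cytokine genes upstream of the members were compared in Model against Normal, where 4.37% of all genes were called higher. Ifng, which encodes interferon gamma and was singled out after its values were seen, stood at 0.525, 1.05 and 0.0514 CPM in Normal and at 1.92, 1.84 and 1.21 CPM in Model, in the order of libraries 1 to 3. The groups did not overlap, at low levels, and the test was not passed, at a log2 fold change of 1.61 ± 0.84 with an adjusted p of 0.317. Among 12 genes of the ligand, its receptor and its signalling, 1 rose in Model, Socs3, a feedback inhibitor of cytokine signalling (2.99 ± 0.34, adjusted p = 0.00431), with a list median of 0.30. Among 10 cytokine genes upstream of interferon gamma, 1 rose, the interleukin-12 receptor gene Il12rb1 (2.03 ± 0.36, adjusted p = 0.0171), with a median of 1.18, and Il12b was at 1.75 ± 0.62 (adjusted p = 0.144). Higher at an unadjusted p under 0.05 were 4 of the 12 and 6 of the 10, against 13.1% of all genes. Every Model library lay above every Normal library for 6 of the 12 and 7 of the 10, as for 14.0% of all genes.

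Other genes induced by interferon gamma were higher in Model as well. Of 13 tested, 5 rose in Model and 0 fell, while 4.37% of all genes were called higher. All 13 were positive, and the median log2 fold change was 1.19. The invariant chain gene Cd74 (2.21 ± 0.39, adjusted p = 0.0168) and the chemokine gene Cxcl9 (1.89 ± 0.34, adjusted p = 0.0175) had the smallest p-values. The highest point of this list, singled out after its values were seen, was Ido1, which encodes a tryptophan-degrading enzyme (4.47 ± 0.85, adjusted p = 0.0214). In Atorvastatin against Normal 1 of the 13 was called, Cxcl9 (1.81 ± 0.34, adjusted p = 0.0362), against 1.67% of all genes. Of 18 genes induced mainly by type I interferon, none was called in edgeR's test, with 0 at an unadjusted p under 0.05 as higher, 2 lower at an unadjusted p under 0.05 (7.87% of all genes), and a median of -0.57 in Model against Normal. Their smallest p-values were those of Ifit1 (-1.28 ± 0.46, adjusted p = 0.153) and Oas2 (-1.13 ± 0.43, adjusted p = 0.173). For 10 of the 18 every Model library lay below every Normal library, as for 11.7% of all genes. For 1, Ifit2, singled out after its values were seen, every Model library lay above every Normal library (1.11 ± 0.55, adjusted p = 0.293). The difference between these lists and the members was not tested.

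**Figure D5:**
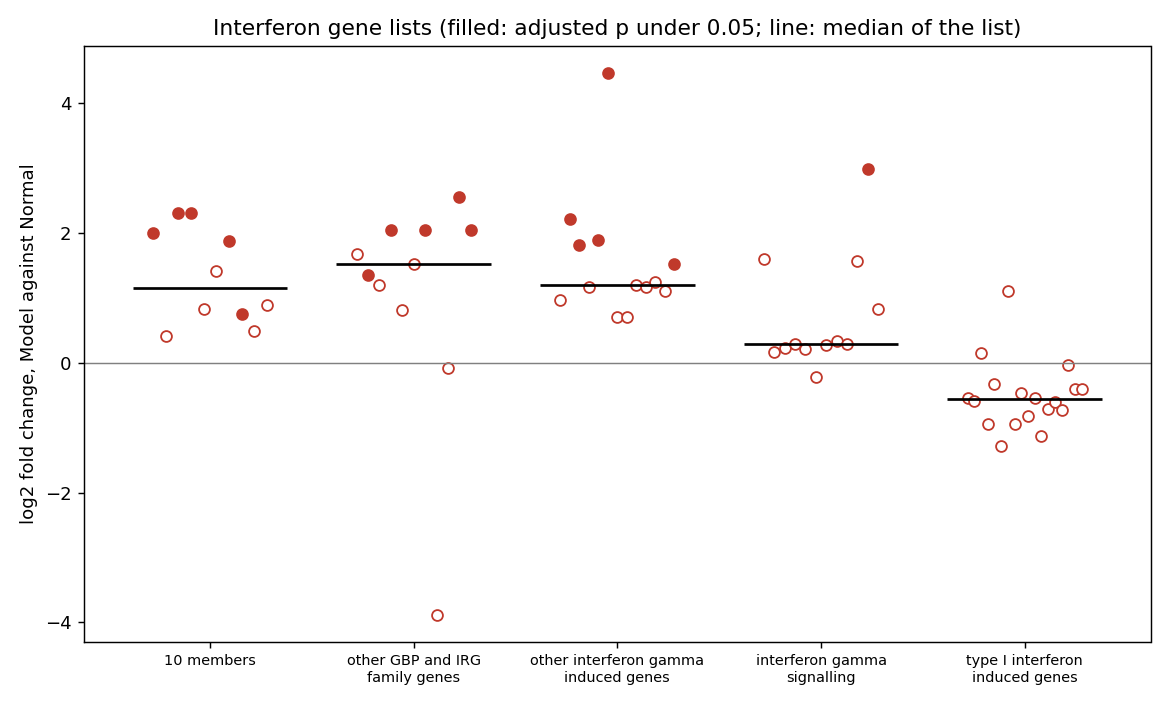
Log2 fold change in Model against Normal for each tested gene of 5 lists, filled where the adjusted p was under 0.05, with the median of each list as a line. The medians are 1.15 for the members, 1.52 for other family genes, 1.19 for other interferon gamma induced genes, 0.30 for signalling genes and -0.57 for type I interferon induced genes.

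Markers of immune cells moved between the same groups. In bulk colon RNA, more cells of a type and more RNA per cell cannot be told apart. Of all tested genes, 4.37% were called higher in Model against Normal, the share to set beside the counts of markers that rose. The 12 macrophage markers summed to 402 to 671 CPM in Normal, 1280 to 1471 CPM in Model and 996 to 1091 CPM in Atorvastatin, and 9 of 12 rose in Model, led by Csf1r (log2 fold change 1.38 ± 0.16, adjusted p = 0.00431) and Cd68 (1.70 ± 0.22, adjusted p = 0.00574). The 12 T and NK cell markers summed to 32.3 to 105 CPM in Normal, 150.5 to 180.1 CPM in Model and 101 to 222 CPM in Atorvastatin. None of these 12 passed in edgeR's test, although 6 were higher at an unadjusted p under 0.05, against 13.1% of all genes. Cd4 was at 1.22 ± 0.35 (adjusted p = 0.0792) and Nkg7 at 1.29 ± 0.37 (adjusted p = 0.0803). Neutrophil markers (8 genes) summed to 46.8 to 190 CPM in Normal, 206 to 531 CPM in Model and 117 to 193 CPM in Atorvastatin, and 6 of 8 rose in Model, among them Csf3r (2.79 ± 0.39, adjusted p = 0.00780) and Il1r2 (2.98 ± 0.47, adjusted p = 0.0115). In the Normal and Model libraries most of that sum was Ly6g, which did not pass (1.82 ± 0.59, adjusted p = 0.115). The median log2 fold change of the 8 genes in Atorvastatin against Model was -0.03, with Ly6g at -1.60 ± 0.59 (adjusted p = 0.359). In Atorvastatin against Normal, 5 of the 8 neutrophil markers and 4 of the 12 macrophage markers rose, while 1.67% of all genes were called. In 7 of the 8 no Atorvastatin library overlapped Normal, as for 13.5% of all genes. Among the 5 were S100a9 (8.26 ± 1.33, adjusted p = 0.0217) and Csf3r (2.48 ± 0.39, adjusted p = 0.0210). S100a9 was near the floor in Normal, at 0 to 0.103 CPM, and stood at 38.05, 7.44 and 4.44 CPM in Atorvastatin 1 to 3. Endothelial markers (8 genes) summed to 118 to 137 CPM in Normal and 165 to 295 CPM in Model, where 2 of 8 rose, Eng (1.47 ± 0.25, adjusted p = 0.0147) and Pecam1 (0.86 ± 0.19, adjusted p = 0.0353). Fibroblast markers (8 genes) summed to 309 to 398 CPM in Normal and 713 to 1225 CPM in Model, and 7 of 8 rose, led by Pdpn (1.85 ± 0.29, adjusted p = 0.0117) and Grem1 (2.503 ± 0.41, adjusted p = 0.0136). Of 8 B and plasma cell markers 0 passed in edgeR's test. At an unadjusted p under 0.05, 1 was higher, Derl3 (1.17 ± 0.37, adjusted p = 0.109), against 13.1% of all genes. Pax5 was at -1.31 ± 1.23 (adjusted p = 0.596). Of 12 colon epithelial markers, which summed to 30389 to 42739 CPM in Normal and 24894 to 35479 CPM in Model, 0 passed in edgeR's test. At an unadjusted p under 0.05, 1 was higher, Cdh1 (0.41 ± 0.16, adjusted p = 0.189), against 13.1% of all genes. Cdx2 was at -1.07 ± 0.53 (adjusted p = 0.293). Of 15 tested pancreatic genes 0 passed and 5 were higher at an unadjusted p under 0.05, against 13.1% of all genes. Cela1 was at 4.01 ± 1.19 (adjusted p = 0.0895) and Clps at 4.06 ± 1.53 (adjusted p = 0.167). Of 9 tested small intestinal genes 1 rose, Fabp6 (3.73 ± 0.77, adjusted p = 0.0291), and Mttp was at 3.12 ± 0.80 (adjusted p = 0.0575). Of the 9, 6 were higher at an unadjusted p under 0.05 (13.1% of all genes) and 1 was lower (7.87% of all genes). The lower gene was Fabp2, singled out after its values were seen (-1.75 ± 0.73, adjusted p = 0.213). No marker of these lists was at 0 in every library. The part of cell numbers in the members' levels was not tested.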

How the data were processed

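Per the labels' protocols, 9 colon libraries were made with 1.3 µg RNA each. The submitters' processing notes name bcl2fastq 2.0, HISAT2, StringTie and DESeq2, and the builds rn6 and mm39, without roles. The authors deposited unscaled estimated counts per gene, stored as whole numbers and used without rounding. Values of 4 (1997) outnumber values of 1 (346), so 1 read pair appears as about 4 estimated counts.

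Genes were kept where edgeR 4.0.16 (R 4.3.3) passed them with filterByExpr, 16160 of 21720. After TMM scaling, edgeR's quasi-likelihood fit used all 9 libraries and no covariate besides the group. Tests were two-sided with a threshold of 0.05 on the adjusted p. SE is the absolute log2 fold change divided by the square root of F. CPM used TMM-scaled library sizes, and log2 CPM a prior count of 2. The test was tested on data simulated with the spread that edgeR estimated from these libraries. Such a check cannot show whether the real counts follow the assumptions of the test. Alternatives used DESeq2 1.42.0 or limma 3.58.1 (voom), other scalings, filters and samples. Figures were drawn with matplotlib 3.10.9. Members, lists and the naming rule were chosen with earlier results of these data known. Named were all members, the 2 genes of each list with the smallest p in Model against Normal, family genes that passed, and the 5 genes most like the members. Listed genes with no row there were not analysed here, and 1 gene that the rule names is not reported here. Motif background is the share of genes with at least 1 match in any RefSeq window.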

Additional observations from a re-analysis of the deposited data

How the results depend on the processing

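Of the 10 members, 5 were called in Model against Normal with all libraries, 3 with only the libraries compared, 1 without Model 2 and 3 together and 1 to 6 with 1 library left out. In Atorvastatin against Normal the count was 0, and 1 (Gbp5) with upper-quartile scaling, library size alone, no filter, at least 1 CPM in 3 libraries, only the libraries compared, counts divided by 4 or without Model 2 and 3, 2 with DESeq2 and 0 to 1 with 1 library left out. In Atorvastatin against Model it was 0, 2 with DESeq2 and 0 with any 1 library left out. Over all genes, 883 in Model against Normal became 1966 with DESeq2, 474 with only the libraries compared, 476 without Model 2 and 3 and 164 to 1164 with 1 library left out. The 270 in Atorvastatin against Normal became 436 with library size alone, 1056 with DESeq2, 141 with limma-voom and 17 to 382 with 1 library left out. The 0 in Atorvastatin against Model became 321 with DESeq2 and 0 to 1 with 1 library left out. Library size alone changed the share of higher calls in Model against Normal from 80.0% to 67.3% and moved the median of all genes by 0.24 in Atorvastatin against Model and 0.14 in Atorvastatin against Normal. Irf1 was then not called in Model (adjusted p = 0.0525).

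The 5 members called in Model against Normal kept their direction in all 21 alternatives. Values near 0 turned in the comparisons with Atorvastatin. Gbp3 against Normal was -0.11 with limma-voom and -0.0076 with the replicate block, and -0.27 to 0.46 with 1 library left out. With 1 library left out, Gbp7 ran from -0.059 to 0.48, Irgm1 from -0.12 to 0.39 and Irgm2 from -0.12 to 0.48. Gbp3 against Model ran from -0.67 to 0.052. The causes were not tested. The labels do not say that replicate numbers pair the libraries. Pearson's r of same-numbered libraries' deviations from their group means exceeded 0.1 in 2 of 9 pairs. It ran from -0.28 to 0.23 there and from -0.23 to 0.26 in the other pairs. With 3 libraries a group these values cannot exclude a pairing. With the replicate number as a block, 3 members and 402 genes were called in Model against Normal and 104 genes in Atorvastatin against Normal, and Gbp4 (adjusted p = 0.0627) and Irf1 (adjusted p = 0.0780) were not called. With 3 libraries a group, the SE of the members in Model against Normal ran from 0.17 to 0.47, which limits the differences that could be detected.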

Other observations

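Genes that work with GBPs and IRGs were compared in Model against Normal as well. Of 10 inflammasome genes, 3 rose and 7 did not pass, while 4.37% of all genes were called higher. The median log2 fold change was 0.30. Il1b, the cytokine that caspase-1 cleaves (log2 fold change 2.99 ± 0.58, adjusted p = 0.0234), and the sensor Nlrp3 (2.83 ± 0.61, adjusted p = 0.0330) had the smallest p-values. The third was Gsdmd, the pore-forming gasdermin that caspase-1 opens (1.09 ± 0.26, adjusted p = 0.0441), named after its values were seen. In the Atorvastatin libraries 1 to 3, Il1b stood at 67.2, 36.04 and 27.1 CPM, highest in library 1, where the members were lowest. Some markers of neutrophils and myeloid cells, singled out after their values were seen, were also highest there. S100a9 stood at 38.05, 7.44 and 4.44 CPM and S100a8 at 10.5, 1.58 and 0.907 CPM in libraries 1 to 3. Cxcr2 stood at 4.27, 1.36 and 0.681 CPM and Itgam at 53.7, 16.9 and 18.9 CPM. Other markers were lowest there, such as Ly6g at 86.0, 157 and 90.2 CPM and C1qa at 45.4, 74.1 and 80.7 CPM. The sum of the 12 macrophage markers was also lowest in library 1, at 996 CPM against 1054 and 1091 CPM. The part of neutrophils and myeloid cells in the Il1b level was not tested.

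Of 16 genes of autophagy and protein prenylation, some of which help to place these GTPases on membranes, 0 were called in edgeR's test in any of the 3 comparisons. At an unadjusted p under 0.05, 1 was higher in Model against Normal, against 13.1% of all genes. That was Map1lc3b, an LC3 gene, with a mean of 125 ± 10.9 CPM in Normal and 165 ± 11.5 CPM in Model. Its log2 fold change was 0.40 ± 0.11 (adjusted p = 0.0734). Gabarap was at 0.26 ± 0.13 (adjusted p = 0.295). The list had a median of -0.05.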
